A study of Mus musculus with 66 samples.

Results

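The cell cycle genes described here are 45 mouse genes listed by symbol for their known roles. The list was drawn up with earlier results of these data known, although its rule uses no measured value. They comprise 3 transcription factors (E2f1, Mybl2 and Foxm1), 17 genes that act in S phase, when DNA is copied, and 25 genes that act in mitosis, when the copies are separated. They are 45 of the 30452 genes in the deposited table and hold 204 of its 88198 transcripts. The value of a gene is the sum of its transcripts in TPM, a length-adjusted share of the transcripts in a library scaled to the same total in each. All C57Bl/6 mice came from Jackson Laboratories at 6 weeks of age, and the injured ones received 3% dextran sulfate sodium (DSS), a chemical that damages the colonic mucosa, for 6 days from day 0. The groups are 4 uninjured mice at day 0 and 3 mice at each of days 3, 6, 9, 14 and 20, so the day 3 mice were taken during DSS, the day 6 mice at its end and the later mice during recovery. Mid-colon, rectum and anus were taken from every mouse (19 samples each), and squamous neo-epithelium, a squamous tissue listed as its own section after injury, from the 9 mice of days 9, 14 and 20. The muscle layer had been removed from each piece, each sample is bulk tissue of mixed cells, and several sections came from the same mouse.

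Cells that enter the cycle first switch on genes bound by E2F factors, which load the replicative helicase at origins and supply nucleotides, and later a second wave of genes driven by B-Myb (the product of Mybl2), the MuvB complex and Foxm1, which build the spindle and divide the chromosomes. In resting cells MuvB, in a complex with E2F4 and a retinoblastoma-related protein, holds the second wave down. In the colon dividing cells lie in the lower part of the crypts, and in squamous epithelium in the basal layers.

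Promoter sequences show how the S phase and the mitosis genes differ at their starts. RefSeq promoter windows on GRCm38.p6, each with 250 bases before and 50 bases after a transcription start, were at hand for 37 of the 45 genes (40 windows). Aurkb, Ccna2, Ccne2, Foxm1, Gins2, Kif20a, Mcm4 and Tpx2 had no window. Motifs were searched on both strands. The first was the cell cycle genes homology region (CHR, TTTGAA, reverse TTCAAA), which MuvB binds, and the second was the CCAAT box (CCAAT, reverse ATTGG), which the factor NF-Y binds. The third was an E2F motif with 4 spellings (TTTCCCGC, TTTGGCGC, TTTGCCGC or TTTCGCGC, reverses GCGGGAAA, GCGCCAAA, GCGGCAAA and GCGCGAAA). The 3 mitosis and 2 S phase windows below are shown because they carry these motifs in the patterns described next, with matches in capitals. The windows are Cdc20 at chr4:118437294-118437593 (minus strand), Ccnb2 at chr9:70421505-70421804 (minus), Mki67 at chr7:135716330-135716629 (minus), Mcm5 at chr8:75109259-75109558 (plus) and Mcm6 at chr1:128359656-128359955 (minus).
Cdc20: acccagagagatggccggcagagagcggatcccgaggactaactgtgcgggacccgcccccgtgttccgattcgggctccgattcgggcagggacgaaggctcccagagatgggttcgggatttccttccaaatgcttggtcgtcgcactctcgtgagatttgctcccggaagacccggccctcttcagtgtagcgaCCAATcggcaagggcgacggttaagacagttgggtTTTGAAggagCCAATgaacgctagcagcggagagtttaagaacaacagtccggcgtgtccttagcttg
Ccnb2: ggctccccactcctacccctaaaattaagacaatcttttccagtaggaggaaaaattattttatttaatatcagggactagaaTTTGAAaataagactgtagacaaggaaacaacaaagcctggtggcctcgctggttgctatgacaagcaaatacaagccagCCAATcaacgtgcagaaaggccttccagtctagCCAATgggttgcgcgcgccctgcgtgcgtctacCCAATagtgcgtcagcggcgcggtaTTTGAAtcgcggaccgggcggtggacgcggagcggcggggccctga
Mki67: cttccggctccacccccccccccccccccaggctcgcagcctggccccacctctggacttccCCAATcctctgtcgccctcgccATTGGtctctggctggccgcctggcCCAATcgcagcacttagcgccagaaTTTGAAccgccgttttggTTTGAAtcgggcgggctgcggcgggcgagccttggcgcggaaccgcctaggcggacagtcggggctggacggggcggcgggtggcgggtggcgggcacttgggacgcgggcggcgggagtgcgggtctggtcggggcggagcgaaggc
Mcm5: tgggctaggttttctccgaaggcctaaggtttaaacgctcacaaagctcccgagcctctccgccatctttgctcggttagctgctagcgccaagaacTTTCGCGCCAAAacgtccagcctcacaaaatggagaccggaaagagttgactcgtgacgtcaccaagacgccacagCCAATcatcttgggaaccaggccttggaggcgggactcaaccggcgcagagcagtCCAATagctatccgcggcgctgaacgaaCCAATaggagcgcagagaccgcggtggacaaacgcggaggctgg
Mcm6: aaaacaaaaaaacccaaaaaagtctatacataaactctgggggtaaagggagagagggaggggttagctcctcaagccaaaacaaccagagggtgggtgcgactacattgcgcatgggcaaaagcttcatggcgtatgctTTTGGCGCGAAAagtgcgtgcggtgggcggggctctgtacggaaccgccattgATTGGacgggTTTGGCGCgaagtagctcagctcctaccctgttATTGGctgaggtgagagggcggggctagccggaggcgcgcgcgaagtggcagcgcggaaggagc
The CHR was found in 17 of 22 mitosis windows (77.3%), in 1 of 16 S phase windows (6.25%, Mcm2) and in 17.9% of all 32851 windows. In the Cdc20 window it starts 18 bases before the transcription start, between CCAAT boxes that start at 53 and 8 bases before it. The 2 windows of Prc1 overlap and share 1 CHR, so by gene the CHR was found for 16 of 21 mitosis genes, at 20 distinct sites, of which 17 lay within 100 bases of the start. The CCAAT box was in 90.9% of mitosis windows, 68.8% of S phase windows and 37.4% of all windows. The E2F motif went the other way, with 8 of 16 S phase windows (8 of 14 genes), 4.55% of mitosis windows (Cdk1 alone) and 2.26% of all windows. The capitals TTTCGCGCCAAA in Mcm5 and TTTGGCGCGAAA in Mcm6 are pairs of overlapping E2F matches, and across the 40 windows 1 pair of different motifs overlapped. Birc5, Bub1, Ccnb1, Cenpe and Nusap1 were the mitosis genes with a window but no CHR of the exact letters TTTGAA or TTCAAA in it. Neither the E2f1 nor the Mybl2 window held any of the 3 motifs in the spellings listed. Other spellings were not searched in any window, so a window without a match may hold a site in other letters. The E2f1 window (chr2:154569377-154569676, minus strand) lies inside the annotated gene, whose outermost start is at 154569892. The bases before that start were therefore not searched for E2f1. The windows of Cdc6 and Mcm7 also lie inside the annotated genes, as does the Uhrf1 window that holds its E2F match (chr17:56304063-56304362, plus strand). A match is a description of these letters and not evidence of binding.

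The table held no counts, so the depth of the 66 samples is unknown, and between 11268 and 13789 genes reached 1 TPM in a sample. Section labels were checked against marker genes. The summed TPM of 8 squamous keratinocyte genes was 3.73 to 23.5 in mid-colon, 13.2 to 139 in day 0 rectum and 10051 to 27118 in anus. In rectum after injury it was 6.5 to 37.7 at days 3 and 6, 107 to 756 at day 9, 25 to 992 at day 14 and 8.01 to 577 at day 20, so some recovering rectal samples held more squamous RNA than any day 0 rectum. It was 14804 to 33557 in neo-epithelium, and 8 mature colonocyte genes summed to 10234 to 16526 in day 0 mid-colon and rectum. In anus the colonocyte sum was 698 to 2211 at day 0, 1550 to 3731 at day 3 and 52.8 to 85.2 at day 6. In neo-epithelium it was 36.1 to 4076. Anal samples of days 0 and 3 thus held more colonocyte RNA than those of day 6. Skeletal muscle genes summed to 1781 to 17996 in anus against 2.63 to 12.3 in neo-epithelium. Below, differences are log2(TPM + 1) values ± SE from limma, a scale that understates changes of low genes, and a gene "rose" or "fell" where its Benjamini-Hochberg adjusted p over all tested genes was below 0.05. Values of single samples are in mouse order (mice 1 to 4 at day 0, then 5 to 7, 8 to 10, 11 to 13, 14 to 16 and 17 to 19 at days 3 to 20). In bulk tissue, fewer dividing cells and less cell cycle RNA in each cannot be told apart.

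**Figure D1:**
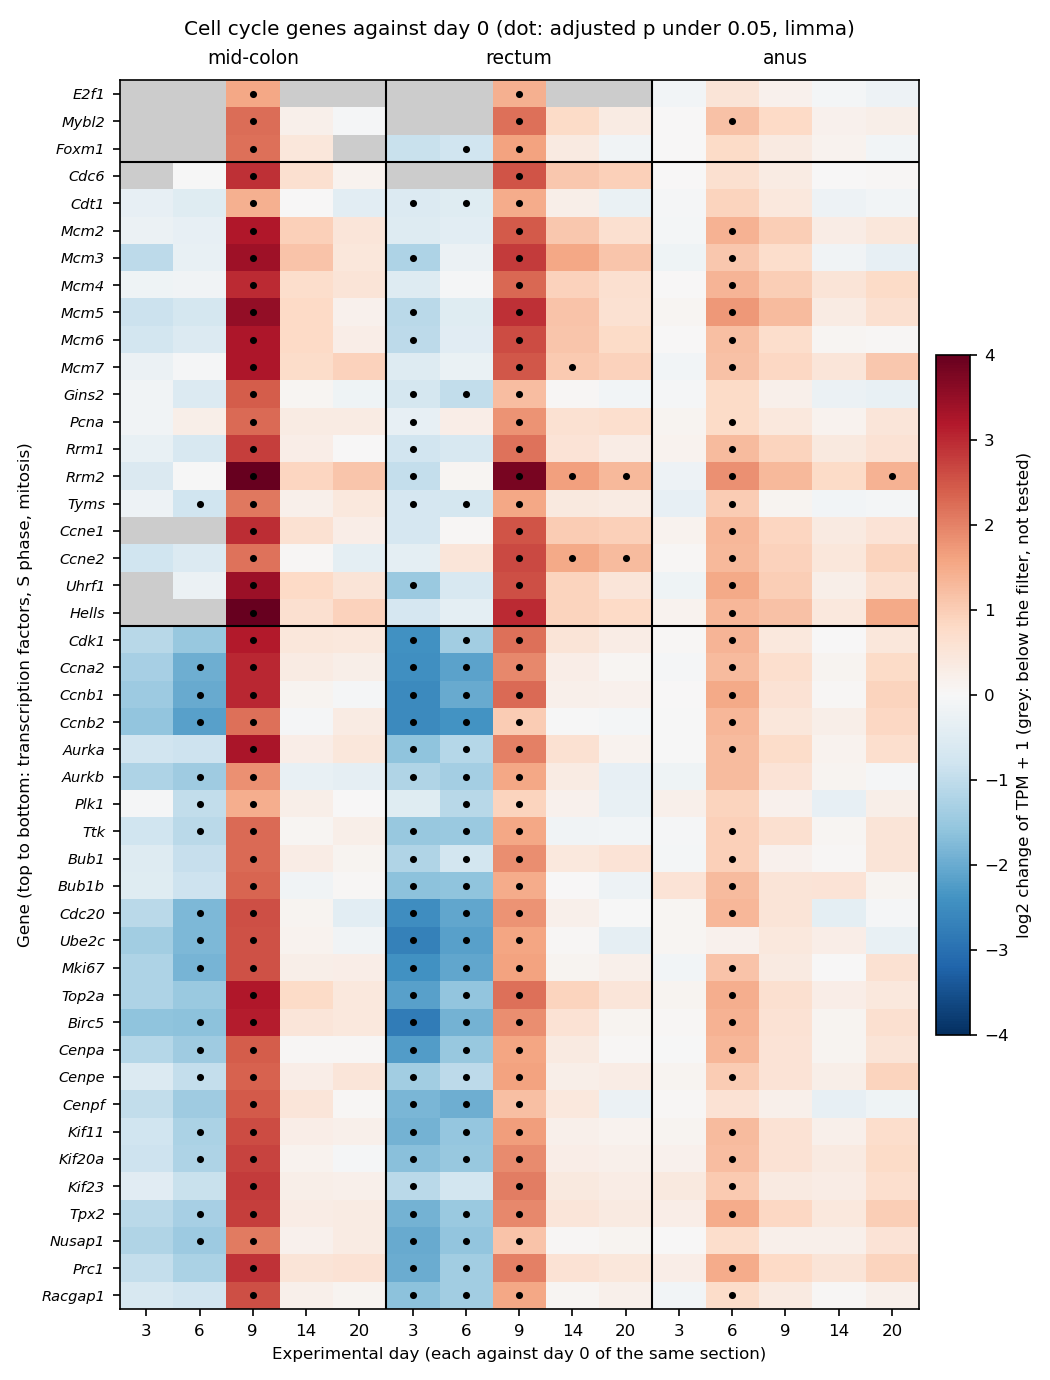
Heat map of the log2 difference of each of the 45 genes (vertical axis, grouped by role) from day 0 of the same section at days 3 to 20 (horizontal axis), with a dot where the adjusted p was below 0.05 and grey where the gene was not tested. All 45 genes were above day 0 in mid-colon and rectum at day 9, after lower mitosis genes at days 3 and 6, while in the anus the dots lie at day 6, with 1 more for Rrm2 at day 20.

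In the rectum, mitosis genes fell by the third day of DSS, with a smaller median change of the S phase genes. Of 42 testable genes 34 fell and none rose, where 5.13% of all 12348 genes tested fell. The fallers were 24 of 25 mitosis genes (median difference -1.90) and 10 of 16 S phase genes (median -0.68), where the median of all genes was -0.06. For 41 of the 42 every day 3 mouse was below every day 0 mouse, a pattern seen in 12.6% of all genes, and the exception was Ccne2. E2f1, Mybl2 and Cdc6 were too low to be tested at days 3 and 6.

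Cdc20, which activates the anaphase-promoting complex, was at 12.5, 11.4, 12.5 and 12.9 TPM at day 0 and at 1.39, 1.76 and 0.988 TPM at day 3. The groups lay far apart, and the difference was -2.50 ± 0.13 (adjusted p = 7.53e-05). Mki67, the proliferation marker Ki-67 that coats mitotic chromosomes, went from 16.3, 14.9, 16.1 and 14.1 TPM to 2.45, 3.01 and 1.09 TPM (-2.41 ± 0.21, adjusted p = 0.00037). The largest fall was that of Birc5 (survivin, which guides chromosome attachment), at 29.2, 31.4, 31.6 and 25.3 TPM before and 4.31, 5.09 and 1.51 TPM at day 3 (-2.81 ± 0.27). Ube2c, the ubiquitin-conjugating partner of the anaphase-promoting complex, fell by 2.71, the B-type cyclins Ccnb2 and Ccnb1 fell by 2.56 and 2.54, and their kinase Cdk1 fell by 2.43. Plk1, a kinase of mitotic entry, was the one mitosis gene that did not pass (-0.47 ± 0.15, adjusted p = 0.111), and its values of 5.75, 5.91 and 6.93 TPM lay just below the day 0 range of 7.41 to 10.5 TPM.

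Among S phase genes, Mcm5, a subunit of the replicative helicase, was at 3.73, 3.77, 4.5 and 2.7 TPM at day 0 and at 1.21, 1.18 and 1.17 TPM at day 3 (-1.08 ± 0.15, adjusted p = 0.00405). Rrm2, the regulated subunit of ribonucleotide reductase, fell by 0.94. Pcna, the sliding clamp of DNA polymerase, moved least, from 87.1, 84.4, 89.1 and 83.7 TPM to 72.2, 64 and 67.9 TPM (-0.34 ± 0.08, adjusted p = 0.0343). Uhrf1, which copies DNA methylation, fell most of this group (-1.50 ± 0.18). Mcm2, Mcm4, Mcm7, Ccne1, Ccne2 and Hells did not pass, nor did Foxm1 (-0.88 ± 0.23, adjusted p = 0.0559).

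Among cell cycle genes beyond the 45, a majority fell at day 3 in the list of mitotic entry and checkpoint, and a minority passed in each other list. Of 15 tested genes of mitotic entry and checkpoint 10 fell, with Nuf2, a kinetochore protein, furthest (-1.99). Of 16 genes of origin recognition and replication 4 fell, led by Mcm10 (-1.34). Ccnd2, a D-type cyclin that starts the G1 phase, rose by 0.87 while its kinase partner Cdk4 fell by 0.73. Of 6 tested CDK inhibitors Cdkn1a and Cdkn2c fell (-0.93 and -0.70). Beside these changes, 2 of 4 tested crypt stem cell markers fell and their summed level was 9.99 to 15 TPM against 18.3 to 23 TPM at day 0. Of 6 fibroblast markers 4 fell, and 8 colonocyte markers gave 2 rises and 3 falls. The part of these cell types in the fall of the mitosis genes was not tested. When the samples of all days shared one fit, 22 of the 42 genes fell in place of 34.

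**Figure D2:**
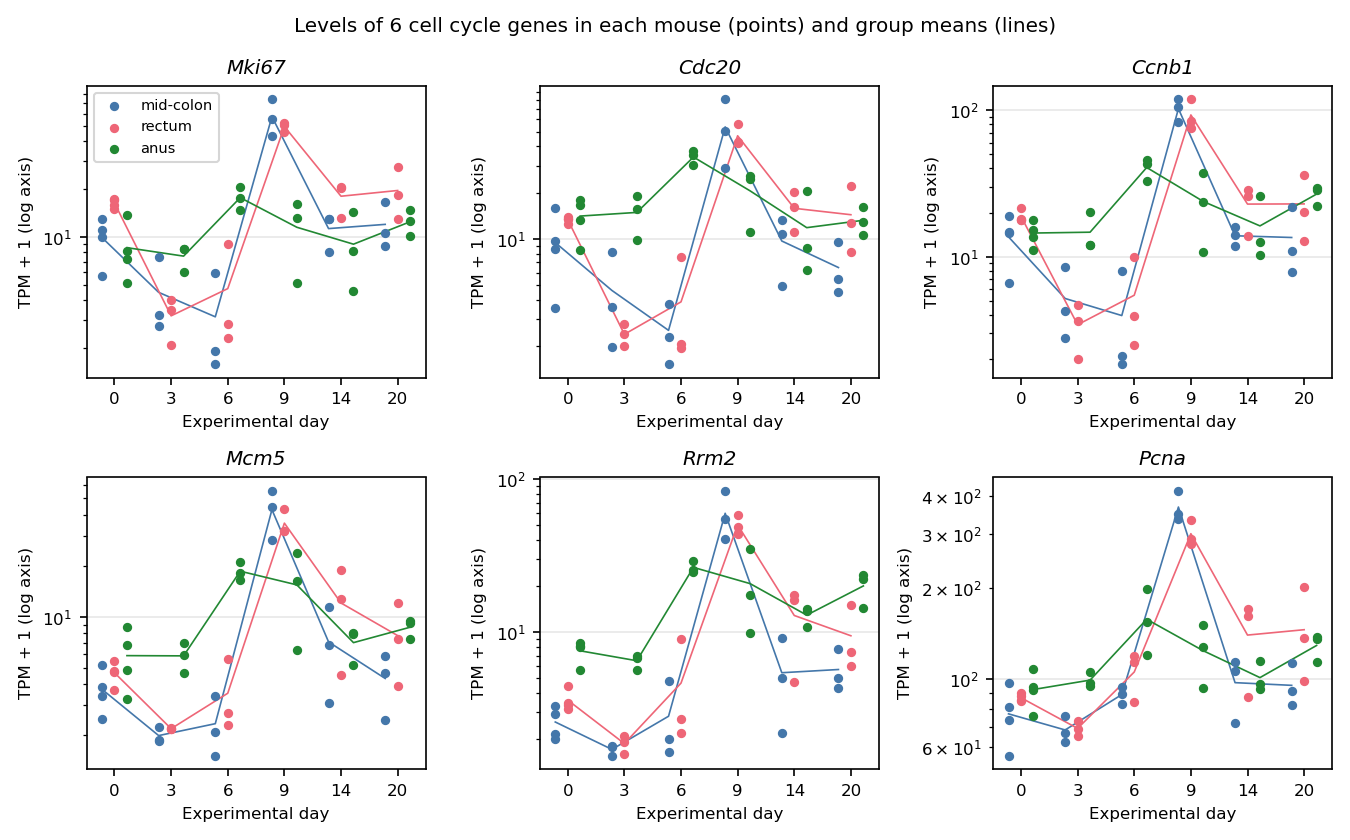
TPM (log axis) of Mki67, Cdc20, Ccnb1, Mcm5, Rrm2 and Pcna in each sample of mid-colon, rectum and anus against experimental day, with each point a mouse. Rectal Cdc20 drops from about 11.4 to 12.9 TPM at day 0 to 0.988 to 1.76 TPM at day 3 and climbs to 41.2 to 54.8 TPM at day 9. Rectal Pcna lies at 83.7 to 89.1, 64 to 72.2 and 83.4 to 118 TPM at days 0, 3 and 6. Anal Pcna lies at 75 to 107 TPM at day 0 and 119 to 197 TPM at day 6.

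At the end of DSS, day 6, the mitosis genes of the rectum were still low, with 1 mouse apart from the others. Of 42 genes 28 fell and none rose, where 37.2% of all 12615 genes tested fell, so many other genes fell too. They were 24 of 25 mitosis genes (median -1.53), the S phase genes Cdt1, Gins2 and Tyms, and Foxm1, with a median of -0.41 over 16 S phase genes and -0.27 over all genes. Groups did not overlap for 23 of the 42, a pattern found in 41.3% of all genes. TMM scaling, which equalises typical genes between libraries, called 22 of the genes lower and 1 higher, and 4514 of all genes in either direction. It moved the median of all genes from -0.27 to -0.06. Ccnb2 fell most (-2.39 ± 0.36, adjusted p = 0.00161), and Kif23, a motor of cell division, was the mitosis gene that did not pass (-0.74).

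Mouse 8 stood apart at day 6, with 226 TPM summed over the S phase genes and 186 TPM over the mitosis genes, where mice 9 and 10 had 37.1 and 53.7 TPM of mitosis genes. Its Mki67 was at 8.02 TPM, against 1.32 and 1.84 TPM in mice 9 and 10, and its Rrm2 was at 8.05 TPM, above all day 0 values of 2.35, 2.47, 3.45 and 2.17 TPM. Between days 3 and 6, Pcna (0.60 ± 0.15) and Ccne2, one of the E cyclins that start S phase (0.85 ± 0.25), rose, 2 of 35 tested genes, where 10% of all genes rose. That count was 4 without mouse 9, 1 without mouse 10 and 0 without any of mice 5, 6, 7 and 8. Neutrophil markers (5 of 5 tested) and macrophage markers (6 of 6) rose from day 0 to day 6, and 3 of 4 crypt stem and 4 of 6 squamous markers fell. The summed mature colonocyte genes, with 4 markers up and 3 down, were at 14437 to 15402 TPM against 10234 to 12526 TPM at day 0. Mitochondrial transcripts made up 9.67% to 13.4% of TPM against 16.3% to 20% at day 0. The part of each in the cell cycle values was not tested.

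At day 9, in early recovery, all 45 genes were higher in the rectum than at day 0, where 33.5% of all 13140 genes tested rose. The S phase genes gained most, with a median of 2.51 over 17 genes against 1.66 over the 25 mitosis genes and 0.13 over all genes. For 44 of the 45 every day 9 mouse was above every day 0 mouse, which 34.6% of all genes showed, and Cenpf, a centromere protein, overlapped. The count was 45 without any of the 7 mice in turn.

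Rrm2 rose furthest, from 2.35, 2.47, 3.45 and 2.17 TPM to 47.7, 42.7 and 57.6 TPM (3.80 ± 0.17, adjusted p = 1.15e-06). Hells, a chromatin remodeller active during replication, rose by 2.99 and Mcm5 by 2.93 ± 0.18, to 31.1, 30.9 and 42.2 TPM. The E cyclins Ccne1 and Ccne2 rose by 2.52 and 2.63, and Cdc6, which loads the helicase, rose by 2.51. Mki67 reached 51.3, 49.6 and 45.2 TPM (1.60 ± 0.11), Ccnb1 rose by 2.28 and Cdc20 by 1.81. Plk1 (0.88 ± 0.19, adjusted p = 0.00454) and Ccnb2 (1.02 ± 0.15) gained least. Of the transcription factors, Mybl2 rose from 0.638, 0.775, 1.49 and 0.611 TPM to 7.86, 6.97 and 7.64 TPM (2.20 ± 0.18), Foxm1 by 1.60 and E2f1 by 1.42.

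Set against day 6 the day 9 rise was larger for mitosis genes. All 45 genes rose, where 32.1% of all genes did, with a median of 3.22 over mitosis genes and 2.76 over S phase genes, and the extremes were Ccnb1 (4.31 ± 0.46) and E2f1 (1.46 ± 0.24). The comparisons of day 9 with day 0 and with day 6 share the day 9 samples.

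The wider cell cycle lists moved with the 45 at day 9. Of 18 replication genes 17 rose, led by the flap nuclease Fen1 (2.15), and of 16 genes of mitotic entry 13 rose, led by Ect2 and Chek1 (both 2.20). Wee1, the kinase that restrains Cdk1, was the one gene of that list that fell (-1.29 ± 0.30). Among 6 D-type cyclins and G1 kinases 5 rose, and Ccnd1, cyclin D1, was at 7.55 ± 2.17 TPM (SD, n = 4) at day 0 and at 56.5 ± 19.9 TPM (SD, n = 3) at day 9, a difference of 2.72 ± 0.26. Of the CDK inhibitors Cdkn2d rose most (1.30) and Cdkn2b fell most (-1.65), and Rbl2, the retinoblastoma relative p130 of resting cells, fell by 1.07. Neutrophil genes summed to 11103 to 13161 TPM at day 9 against 0.797 to 5.92 TPM at day 0. All 6 neutrophil, 6 macrophage and 4 tested T cell markers rose, and 7 of 8 colonocyte markers fell; the part of these cells in the rise was not tested.

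**Figure D3:**
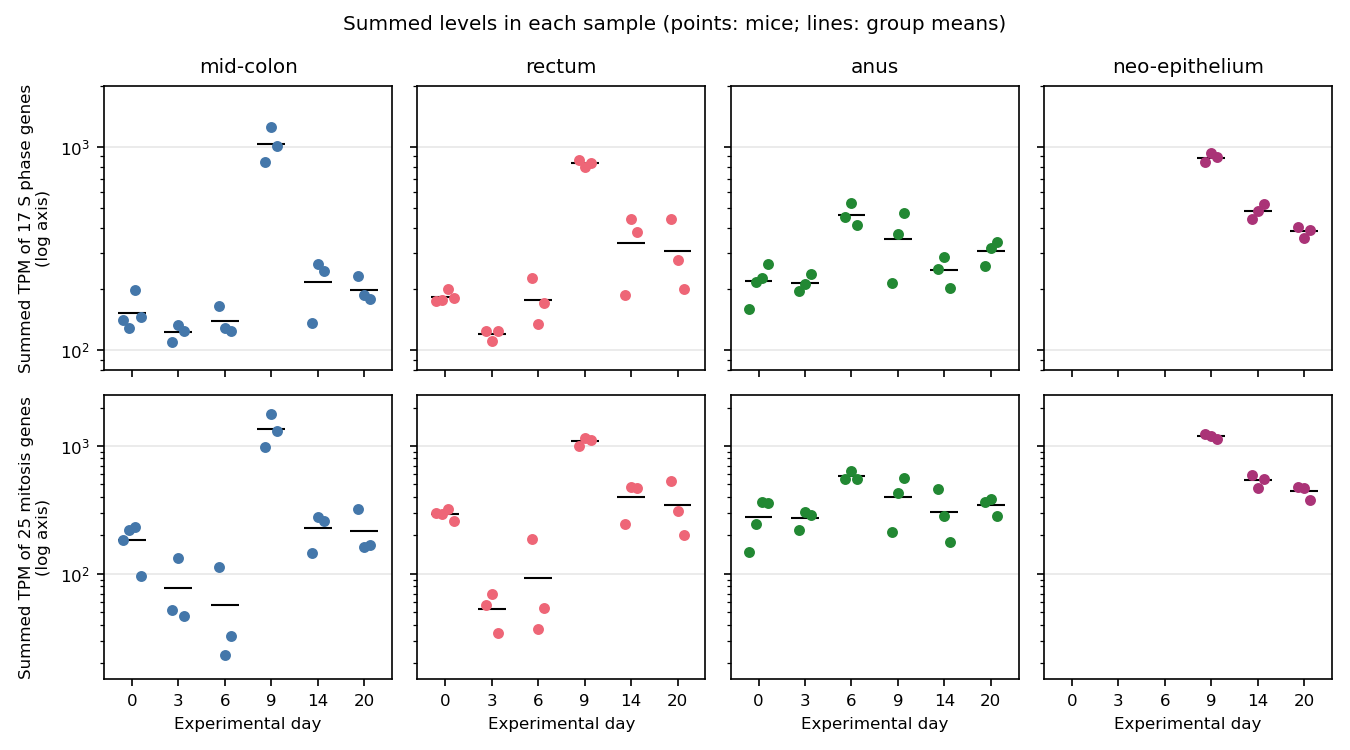
Summed TPM of the 17 S phase genes and of the 25 mitosis genes in each sample (log axis) against day, by section, with each point a mouse. In the rectum the mitosis sum goes from 260 to 322 TPM at day 0 through 34.3 to 69 TPM at day 3 to 1007 to 1161 TPM at day 9, while the S phase sum goes from 175 to 200 through 111 to 125 to 802 to 861 TPM.

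By days 14 and 20 most of the genes no longer differed from day 0 by the test, and mice of the same day differed. At day 14, 3 of 44 tested genes rose, where 6.31% of all genes did: Rrm2 (1.64 ± 0.43), Ccne2 (1.52 ± 0.26) and the helicase subunit Mcm7 (1.06 ± 0.29). Rrm2 was at 3.77, 16.6 and 15.3 TPM, so mouse 14 was close to day 0 and mice 15 and 16 well above it. Without mouse 14, 33 genes rose, without mouse 16 none did, and without any of mice 1, 2, 3, 4 and 15 1 did. At day 20 Rrm2 (14, 6.49 and 5.01 TPM, 1.29 ± 0.30) and Ccne2 (13.5, 7.34 and 7.91 TPM, 1.26 ± 0.29) rose, 2 of 44, where 2.79% of all genes did. Without mouse 19, the lowest of that day in both sums, 12 genes rose, and without any other mouse 0 did. TMM scaling gave 7 genes at day 14, where it called 2555 of all 12749 genes in either direction. At day 20 it gave 6, where it called 1829 of all 12677 genes. Markers of other cells were also higher in the mice with more cell cycle RNA. Squamous genes summed to 25, 992 and 709 TPM in mice 14 to 16 and to 577, 342 and 8.01 TPM in mice 17 to 19, so they were lowest in mice 14 and 19, as the cell cycle sums were. Neutrophil genes summed to 179, 1491 and 4615 TPM at day 14 and to 228, 617 and 14.7 TPM at day 20. B cell genes summed to 11.2, 284 and 108 TPM at day 14 and to 190, 115 and 21.3 TPM at day 20, against 3.69 to 34.6 TPM at day 0. Mature colonocyte genes went the other way, at 8584 TPM in mouse 14 and 9987 TPM in mouse 19 against 4375 to 6161 TPM in the other mice of these days. The part of these cells was not tested.

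In the mid-colon, mitosis genes were low at day 6 and all 45 genes rose at day 9. At day 3 all 38 tested genes were lower in the mean, yet limma called none, where 0.308% of all 12008 genes fell. Unadjusted p-values were below 0.05 for 22 of them, against 1304 of all genes. TMM scaling called 4 (Mcm3, Cdk1, Aurkb and Cenpa), against 152 of all genes. The largest differences were those of Birc5 (-1.60 ± 0.43, adjusted p = 0.196) and Ccnb2 (-1.58 ± 0.43), and Plk1 was at -0.04 ± 0.34. Birc5 was at 19.5, 19.9, 21.6 and 9.74 TPM at day 0 and at 3.39, 12 and 2.67 TPM at day 3. Mouse 4 at day 0 and mouse 6 at day 3 made the ranges overlap.

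At day 6, 17 of 40 mid-colon genes fell, where 9.99% of all 11967 genes did. They were 16 mitosis genes and Tyms, thymidylate synthase (-0.80 ± 0.19), with a median of -1.42 over mitosis genes, -0.32 over S phase genes and -0.24 over all genes. Mki67 was at 8.95, 10.1, 11.9 and 4.68 TPM at day 0 and at 4.92, 0.575 and 0.921 TPM at day 6 (-1.86 ± 0.45, adjusted p = 0.025). Mouse 8 overlapped the day 0 range, as it stood apart in the rectum. Ccnb2 fell most (-2.18 ± 0.39, adjusted p = 0.00856), and Aurkb, a kinase of the chromosomal passenger complex, fell by 1.43 ± 0.21; both passed with each mouse left out in turn. The count rested on single mice, at 3 without mouse 1, 2, 3 or 9, 2 without mouse 10 and 29 without mouse 4. Pcna was at 0.24 ± 0.18 (adjusted p = 0.359). Beside these falls, 3 of 3 tested neutrophil markers (summed level 37.5 to 203 TPM against 0.125 to 2.81 TPM at day 0), 6 of 6 macrophage markers (465 to 715 against 120 to 173 TPM) and 2 of 6 fibroblast markers (512 to 570 against 333 to 460 TPM) rose. Of 4 crypt stem markers 3 fell (7.27 to 10 against 9.76 to 24.9 TPM), as did 3 of 8 colonocyte markers, and the part of these cells was not tested. Between days 3 and 6, Mcm3 rose (0.76 ± 0.25) and Tyms (-0.61 ± 0.20) and Plk1 (-0.94 ± 0.31) fell among 32 tested genes, where 4.8% of all genes rose and 27% fell. Without mouse 9 1 gene rose and none fell, without mice 5 or 8 1 gene passed, and without mice 6, 7 or 10 none did. TMM scaling, which moved the median of all genes from -0.38 to -0.02 there, called Mcm3 and Pcna higher and none lower. Over all 11862 genes it called 1871 in either direction.

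At day 9 all 45 genes rose in the mid-colon, with or without any one mouse, where 26.5% of all 12323 genes did. Medians were 2.99 over S phase genes, 2.57 over mitosis genes and 0.09 over all genes, and every day 9 mouse was above every day 0 mouse for all 45. Rrm2 went from 1, 1.91, 2.3 and 1.18 TPM to 39.5, 83.1 and 54.2 TPM (4.49 ± 0.28, adjusted p = 5.72e-06), a larger rise than that of any other of the 45 genes against day 0 in any section. Hells rose by 4.06 ± 0.28 and Mcm5 by 3.52 ± 0.29, while Cdt1, a helicase loader, rose least (1.42 ± 0.25). Mki67 reached 42, 72.8 and 54.2 TPM (2.56 ± 0.29). Against day 6 all 45 rose (31.3% of all genes), from E2f1 (1.57 ± 0.21) to Ccnb1 (5.02 ± 0.50). All 18 replication genes outside the 45 rose, led by Fen1 (3.06), Ccnd1 rose by 2.51 and the inhibitor Cdkn2b fell by 1.74. Neutrophil markers rose (6 of 6) and colonocyte markers fell (7 of 8) at the same time.

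At day 14 none of 44 mid-colon genes passed, where limma called 4.36% of all 12135 genes. Unadjusted p-values were below 0.05 for 4, where 2516 of all genes had one. TMM scaling called 1 (Mcm7), where it called 1298 of all genes, and without mouse 14 9 genes passed. At day 20 none of 43 passed, where 1.56% of all genes were called. There 3 had an unadjusted p below 0.05, where 2505 of all 12116 genes did. TMM scaling called 2 (Mcm7 and Rrm2), where it called 818 of all genes, and without mouse 4 1 passed. Rrm2 was at 6.84, 3.32 and 4 TPM at day 20, still above its day 0 range of 1 to 2.3 TPM (1.12 ± 0.28, adjusted p = 0.0708).

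In the anus the genes rose at day 6, before they rose elsewhere. At day 3 limma called none of 45 genes, where 0.044% of all 13639 genes were called. No unadjusted p was below 0.05, against 615 of all genes, and TMM scaling called 0, against 2 of all genes. Cdc20 was at 7.44, 15.6, 12.2 and 17 TPM at day 0 and at 8.86, 14.6 and 18.1 TPM at day 3, with the ranges overlapping (0.08 ± 0.32). At day 6, when the rectum and mid-colon were low, 35 of the 45 genes rose in the anus, where 8.64% of all 13730 genes did. They were 14 of 17 S phase genes and 20 of 25 mitosis genes, both with a median of 1.27 where that of all genes was 0.07, and Mybl2 (1.18 ± 0.22). Every day 6 mouse was above every day 0 mouse for 42 genes, which 18.3% of all genes showed, with Cenpf, Plk1 and Ube2c overlapping.

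Rrm2 rose most in the anus at day 6, from 4.71, 7.16, 6.97 and 7.47 TPM to 24.6, 28.2 and 23.9 TPM (1.82 ± 0.20, adjusted p = 0.000847). Mcm5 went from 2.26, 3.88, 5.79 and 7.68 TPM to 15.6, 20 and 17.2 TPM (1.74 ± 0.32), and Ccnb1 from 10.1, 14.3, 12.7 and 16.8 TPM to 45, 41.8 and 32.1 TPM (1.50 ± 0.21). The groups did not overlap for these 3 genes. E2f1, Foxm1, Cdc6, Cdt1, Gins2, Aurkb, Plk1, Ube2c, Cenpf and Nusap1 did not pass. Ube2c varied most between uninjured mice, at 18.4, 44.5, 166 and 87 TPM, and its day 6 difference was 0.16 ± 0.66. The summed skeletal muscle genes of the same samples had the same order (1781, 4350, 17996 and 8427 TPM); the part of muscle in the Ube2c values was not tested. The count of 35 fell to 21 without mouse 2, 15 without mouse 8, 9 without mouse 9 and 18 without mouse 10. Beside the rise, all 8 colonocyte markers and 4 of 5 pan-epithelial markers fell, 4 of 8 squamous markers rose, and 4 of 5 neutrophil and 5 of 6 macrophage markers rose; their part was not tested. Outside the 45, 8 of 16 mitotic entry genes rose, led by Anln (1.59), 5 of 18 replication genes rose, led by Gins1 (1.45), Cdk4 rose by 1.17 and Cdkn2b fell by 1.27.

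In the anus at day 9 all 45 genes were higher in the mean than at day 0, but limma called none, where 5.09% of all 13591 genes were called. Unadjusted p-values were below 0.05 for 8, where 2620 of all genes had one. TMM scaling called 1 (Mcm4), where it called 1219 of all genes, and without mouse 11 1 passed. The mice differed, with Rrm2 at 8.94, 16.5 and 34 TPM. At day 14 none passed (4.27% of all 13763 genes were called), and 1 had an unadjusted p below 0.05, where 2217 of all genes did. TMM scaling called 1 (Rrm2), where it called 673 of all genes. At day 20 Rrm2 alone rose, where 1.09% of all genes did, at 13.5, 22.6 and 21.2 TPM against at most 7.47 TPM at day 0 (1.39 ± 0.24, adjusted p = 0.04). An unadjusted p was below 0.05 for 18 of the 45 genes, where 2643 of all 13747 genes had one. The call on Rrm2 was lost without mouse 2, 3, 4, 18 or 19.

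Tests of the difference in response between sections set these courses side by side. At day 6 the response of the rectum was below that of the anus for 39 genes, 24 mitosis, 13 S phase and 2 transcription factors, where 15.4% of all 14571 genes had a lower response. This comparison was added after the day 6 values had been seen. The largest differences were those of Ccnb2 (-3.72 ± 0.49, adjusted p = 0.000228) and Ccnb1 (-3.53 ± 0.48), and E2f1, Cdc6, Mcm3, Pcna, Ccne2 and Ube2c did not pass. At day 3 the rectal response was below the anal one for 14 genes, all of mitosis, where 0.411% of all 14338 genes were, with Birc5 (-2.86 ± 0.43) and Cdc20 (-2.58 ± 0.37) among them. With the mouse as a replicate block the count was 2 (Cdk1 and Cenpa), with Birc5 at an adjusted p of 0.0644 and Cdc20 at 0.0621. It was 8 without mouse 1 or 5, 6 without mouse 6, 3 without mouse 7 and 1 without mouse 2 or 3. At day 9 the rectal rise exceeded the anal one for 26 genes, 14 S phase, 9 mitosis and all 3 transcription factors, where 15.6% of all 14733 genes did. Rrm2 (2.52 ± 0.45), Cdc6 (2.18 ± 0.41) and Mcm3 (2.08 ± 0.40) led, while Ccnb2 differed by 0.57 ± 0.45. That count was 12 without mouse 2 or 12, 13 without mouse 4 or 11 and 15 without mouse 3. With the replicate block Foxm1 (adjusted p = 0.0974) and Ccne2 (0.0516) were lost and Mcm5 was gained.

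Between the responses of rectum and mid-colon few differences passed. At day 3 none of 44 genes differed, where limma called 0% of all 12775 genes. An unadjusted p was below 0.05 for 15 of the 44, against 971 of all genes. TMM scaling called 0 of all genes, and with the replicate block Cdk1 was lower in rectum. At day 9 the rise was smaller in the rectum for 2 genes, where 0.703% of all 13520 genes had a smaller response. These were Gins2, a part of the replicative helicase (-1.20 ± 0.25, adjusted p = 0.0096), and Nusap1, a spindle protein (-0.94 ± 0.26, adjusted p = 0.047). The count was 8 with the replicate block and 18 with TMM scaling, where these called 1064 and 1106 of all genes in either direction. It was 4 without mouse 11, 1 without mouse 1, 2, 4 or 12 and 0 without mouse 13.

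The balance of mitosis to S phase transcripts differed by day in the rectum, while in mid-colon and anus the other days overlapped day 0. In the rectum the ratio of summed mitosis to summed S phase TPM was 1.44 to 1.71 at day 0, 0.274 to 0.622 at day 3, 0.277 to 0.823 at day 6 and 1.17 to 1.45 at day 9. The ranges of days 3 and 6 lay below those of days 0 and 9. It was 1.08 to 1.31 at day 14 and 1.01 to 1.20 at day 20, both below the day 0 range. In the mid-colon mouse 4 was low at day 0 (0.661) and the other uninjured mice were at 1.17 to 1.70. The ratio there was 0.377 to 0.992 at day 3 and 0.180 to 0.691 at day 6, so both days overlapped day 0 through mouse 4. It was 1.165 to 1.426 at day 9, 1.037 to 1.066 at day 14 and 0.872 to 1.384 at day 20. In neo-epithelium it was 1.284 to 1.467 at day 9, 0.971 to 1.351 at day 14 and 0.969 to 1.31 at day 20. In the anus the ratio was 0.925 to 1.60 at day 0 and 1.19 to 1.33 at day 6, with overlap. Ube2c weighed on the anal ratio, and without that gene, a step chosen after its values were seen, the ratio was 0.812 to 1.03 at day 0 and 1.06 to 1.13 at day 6. It was then 0.816 to 1.21 at day 3, 0.689 to 1.02 at day 9, 0.674 to 1.4 at day 14 and 0.738 to 1.19 at day 20. The ranges of days 3, 14 and 20 spanned that of day 6. Pcna made up much of every S phase sum, at 83.7 to 89.1 TPM of 175 to 200 TPM in the day 0 rectum. The ratio compares sums of relative abundances and is given without a test.

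Before injury no gene differed by the test between rectum and mid-colon, and 15 differed between anus and rectum. Rectum and mid-colon differed in none of 42 tested genes, where limma called 1.79% of all 12037 genes. The rectal mean was higher for 41, with Ccne2 the exception (-0.58 ± 0.33). An unadjusted p was below 0.05 for 26 of the 42, against 2805 of all genes. TMM scaling, which moved the median of all genes from 0.21 to -0.02 in this comparison, called 0, against 94 of all genes. With the mouse as a replicate block 6 genes were higher in rectum (Cdk1, Ccna2, Bub1b, Ube2c, Top2a and Birc5), and without mouse 4, low in mid-colon mitosis genes, 2 passed. Anus and rectum differed in 15 of 44 genes, a smaller share than the 60.3% of all genes that limma called. The 5 higher in the anus were E2f1 (0.66), Cdc6 (0.48), Mcm6 (0.72), Mcm3 (1.23 ± 0.23) and Rrm2 (1.07 ± 0.19), where 25.9% of all 13158 genes were higher. The 10 lower in the anus were all mitosis genes, where 34.4% of all genes were lower. Plk1 differed most, at 1.32, 2.74, 2.81 and 5.77 TPM in the anus and 10.5, 7.76, 10.4 and 7.41 TPM in the rectum of the same mice (-1.36 ± 0.29), followed by Mki67 (-1.02) and Ccna2 (-1.02). With the mouse as a replicate block 6 were higher and 9 lower. Cdc6 (adjusted p = 0.0537) and Bub1b (0.0589) were lost, and Mcm7 (0.0409) and Ube2c (0.0283), both higher in the anus, were gained. Without mouse 1, 8 were higher and 6 lower, and without mouse 2 or 3 the total was 7 or 9.

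In squamous neo-epithelium 13 of the 45 genes were higher than in the rectum over days 9, 14 and 20, with day in the model, where 20.7% of all 14492 genes were higher. None was lower in that fit, where 21.3% of all genes were lower, although Mki67 was lower at day 9 taken alone. Medians were 0.35 over S phase genes, 0.31 over mitosis genes and 0.00 over all genes. Rrm2 stood out, at 73.4, 103 and 80.8 TPM at day 9, 23.8, 35.1 and 41.4 TPM at day 14 and 30.6, 27.5 and 24.8 TPM at day 20. Each of these was above all rectal values of its day, and the difference was 1.36 ± 0.25 (adjusted p = 0.000302). Rrm1 (0.85), Mcm4 (0.82) and Ccnb1 (0.71 ± 0.20) followed, and the others were Cenpa, Mcm7, Kif20a, Prc1, Mybl2, Cdk1, Nusap1, Ccnb2 and Ttk. Mki67 did not pass over the 3 days (-0.16 ± 0.18), and at day 9 alone its difference was -0.81 (adjusted p = 0.00416). It was at 29.1, 27.8 and 25 TPM in day 9 neo-epithelium, below all day 9 rectal values, and at 24.8, 17.4 and 15.7 TPM at day 20, within reach of the rectal 26.5, 17.5 and 11.9 TPM. Around the 45, Cdc25b, a phosphatase that activates Cdk1, was higher (1.65), Cdc25a lower (-0.85), the CDK inhibitor Cdkn1a lower (-0.98), Cdkn2a higher (0.93) and Ccnd2 lower (-1.25). All 8 squamous markers were higher and all 8 colonocyte markers lower, and the part of cell type in these differences was not tested.

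Against the anus, the other squamous section, 42 of 45 genes were higher in neo-epithelium, where 38.1% of all 14861 genes were. Medians were 1.17 over mitosis genes, 0.91 over S phase genes and 0.17 over all genes. Ccnb1 led (1.48 ± 0.28, adjusted p = 0.000259), at 128, 100 and 99.5 TPM in neo-epithelium and 9.76, 22.6 and 36 TPM in the anus at day 9. At day 20 it was at 36.1, 43 and 33.4 TPM against 21.2, 28.6 and 27.4 TPM. E2f1 (0.00 ± 0.14) and Cdt1 (0.33 ± 0.15) did not pass. Ube2c was the 1 gene lower (-0.90 ± 0.23), where 20.4% of all genes were lower. All 5 tested skeletal muscle markers were lower too, and their part in the Ube2c value was not tested. At day 20 taken alone 4 genes passed.

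**Figure D4:**
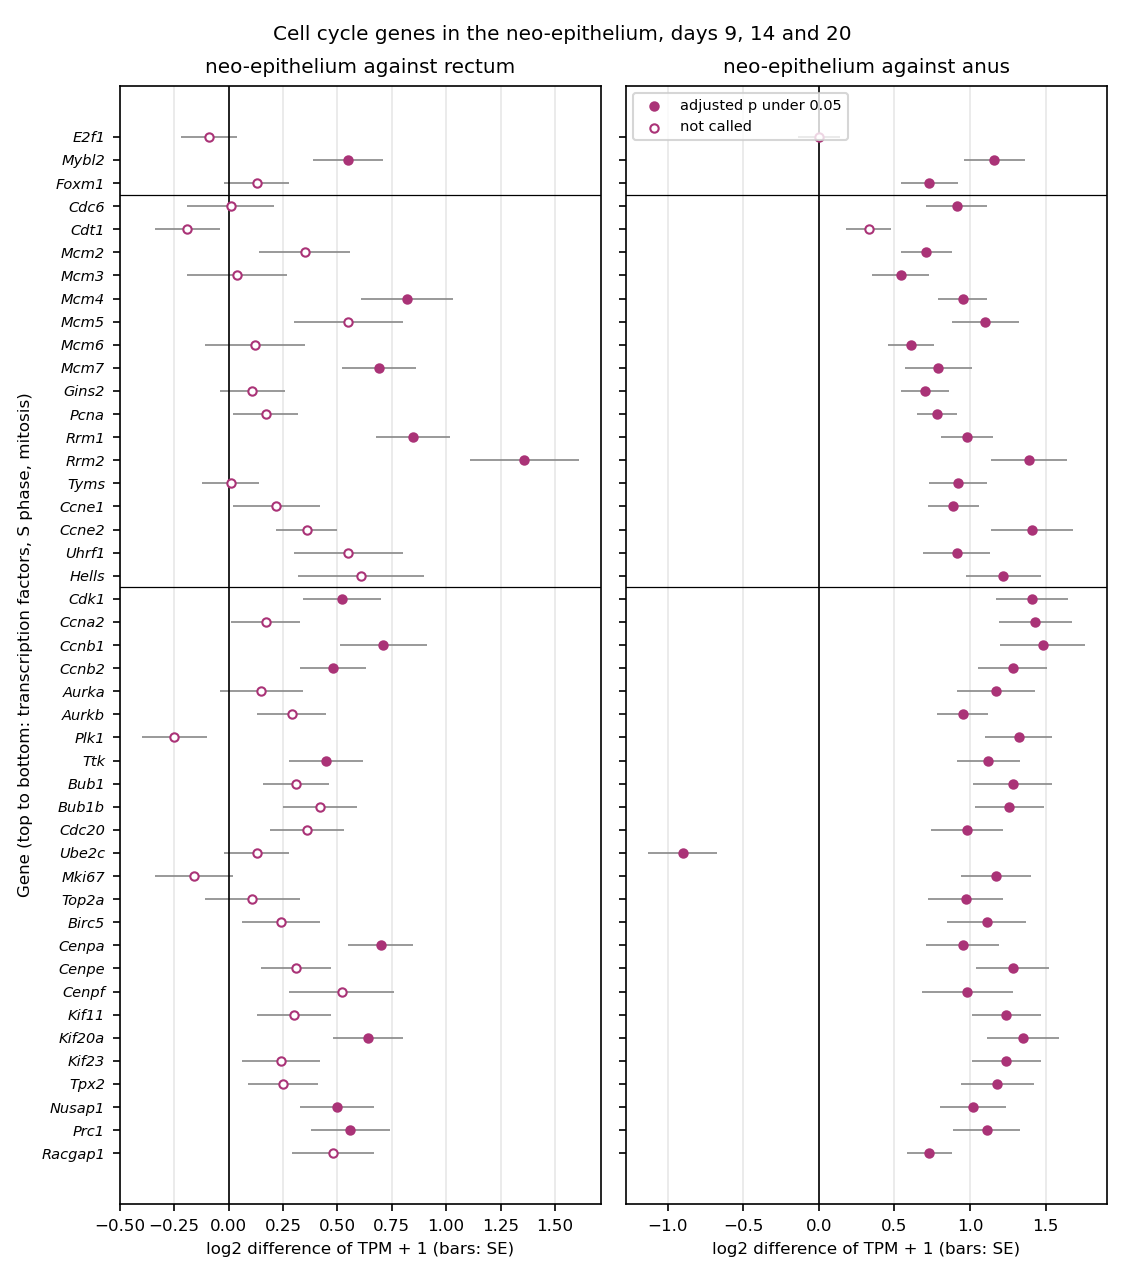
Log2 difference ± SE of each of the 45 genes between neo-epithelium and rectum and between neo-epithelium and anus over days 9, 14 and 20 (horizontal axis), with genes on the vertical axis and filled points where the adjusted p was below 0.05. Most genes lie to the right of 0 against the anus, where Ube2c is at -0.90, and nearer to 0 against the rectum, where Rrm2 is furthest at 1.36.

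Within neo-epithelium the genes fell between days 9 and 20. Of 45 genes 41 fell, where 16.1% of all 13186 genes did, and for all 45 every day 20 mouse was below every day 9 mouse, which 29.3% of all genes showed. Medians were -1.32 over S phase genes, -1.36 over mitosis genes and -0.14 over all genes. Mybl2 fell most, from 10.3, 12.4 and 9.78 TPM to 1.55, 2.28 and 3.06 TPM (-1.86 ± 0.22, adjusted p = 0.00374), with day 14 between them at 4.08, 4.38 and 3.66 TPM. Aurka, a kinase of the spindle poles, fell by 1.81, and Ccnd1 outside the set by 1.70. Mki67 (-0.50 ± 0.20), Cenpe (-0.79), Cenpf (-0.94) and Nusap1 (-0.65) were lower without passing. Of the lists outside the 45, 12 of 18 replication genes and 12 of 16 mitotic entry genes fell. All 8 colonocyte markers rose over the same days (their sum from 36.1 to 258 TPM to 2005 to 4076 TPM), 5 of 6 fibroblast markers and 2 of 6 neutrophil markers fell, and their part was not tested.

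Ordered by mean level in the day 0 rectum, Pcna came first of the 45 and E2f1 last, at 0.658 ± 0.181 TPM (SD, n = 4). E2f1 reached at most 4.29 TPM in any sample, in day 9 rectum, and Foxm1 at most 10.6 TPM, in day 9 mid-colon. Protein-coding transcripts carried 10.6% of the TPM of Tyms, 21.4% of that of Cenpa, 34.3% of that of Ccne2, 47.8% of that of Top2a and 48.8% of that of Gins2, so the sums of these 5 genes come mainly from other transcripts. Of the 45 genes, Tyms, Cenpa and Ccne2 were those whose most abundant transcript was not a protein-coding one.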

How the data were processed

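RNA sequencing of 66 tissue samples from 19 mice gave 1 deposited table of transcript TPM values. Per the submitters' processing notes, CASAVA, kallisto and the mm10 build were used, with versions not given in the sources used here. The authors' TPM values were summed to genes after 1318 repeated lines had been dropped, so that all samples summed to the same total to within 0.22 TPM, and 1284 transcripts without a gene (0.563% to 2.83% of TPM) were left out. Because TPM is a share, a change of abundant genes moves all others.

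Models were fitted with limma 3.58.1 (R 4.3.3) on log2(TPM + 1), with a prior that follows mean expression, on the samples of the groups compared. Genes entered a test if they reached 1 TPM in a number of samples equal to the smaller group, and Benjamini-Hochberg adjustment ran over all tested genes. Differences in response are interaction terms. Nothing in the labels names a sequencing or library batch. Tables and plots used Python 3.11.15, pandas 2.3.3, NumPy 2.4.6 and matplotlib 3.10.9. The fit was also run on simulated data with independent noise in each sample. Those data held no effect shared by the sections of a mouse, so that run does not bear on the pairing.

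The 45 genes, the other lists and the tests were chosen with earlier results of these data known. Values are given for Mki67, Top2a, Cdk1, Ccnb1, Plk1, Cdc20, Birc5, Mcm5, Pcna, Rrm2, Cdc6, Ccne1, Ccne2, E2f1, Mybl2 and Foxm1 where they bear on a result, for the largest and smallest change per comparison, for genes that did not pass or went against the rest, and for the called genes of the other lists that moved furthest.

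Sections of 1 mouse share that animal, so a second fit of each comparison between sections took the mouse as a replicate block. The mean correlation, over genes, of the deviations of such sections from their group means was 0.126 for rectum and mid-colon at day 0, 0.046 for anus and rectum, 0.25 for neo-epithelium and rectum and 0.153 for neo-epithelium and anus. Alternatives were a pseudocount of 0.1, a minimum of 5 TPM or none, TMM factors (0.665 to 1.41), all days of a section in 1 fit, single days for neo-epithelium, the block, and each mouse left out in turn. Within a section mice are the replicates, and p-values measure the spread between them. The main fits between sections took samples of the same mouse as separate, so their p-values do not account for the shared mouse. With the block, 14 genes were higher and 0 lower in neo-epithelium than in rectum. Against anus 42 were higher and 1 lower.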

Additional observations from a re-analysis of the deposited data

Results flagged for a closer look

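In 11 of 135 groups of 4 uninjured mice (45 genes in 3 sections), 1 mouse lay far from the other 3. The measure was the gap of the extreme value over the range of the group, on log2(TPM + 1). For independent groups chance alone would give this in about 1 in 20. These groups hold the same 4 mice and are not independent, so 11 of 135 cannot be judged by that share. In mid-colon, mouse 3 was highest for Mcm6 (7.1 TPM, others 3.3 to 3.75) and Hells (2.24 TPM, others 0.529 to 0.633). Mouse 4 was lowest there for Ube2c (5.71 TPM, others 13.2 to 15.4), Birc5 (9.74 TPM, others 19.5 to 21.6) and Racgap1, a regulator of cytokinesis (1.33 TPM, others 4.03 to 4.62). In the rectum, mouse 1 was lowest for Mcm7 (7.37 TPM, others 10.3 to 11), mouse 3 highest for Ccnb1 (20.6 TPM, others 16.7 to 17.1) and mouse 4 lowest for Aurkb (3.56 TPM, others 5.46 to 5.92). In the anus, mouse 1 was lowest for Rrm2 (4.71 TPM, others 6.97 to 7.47) and Aurkb (1.09 TPM, others 4.74 to 5.74), and mouse 4 highest for Ttk, a spindle checkpoint kinase (2.83 TPM, others 1.5 to 1.67).

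Responses differed between sections by the interaction test in 4 comparisons. The rectal response was lower than the anal one for 14 genes at day 3 and 39 at day 6 and higher for 26 at day 9, and it was lower than the mid-colonic one for 2 genes at day 9. With the mouse as a replicate block these counts were 2, 39, 25 and 8.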

How the results depend on the processing

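The count of 45 genes higher at day 9 than at day 0 or day 6 was the same in rectum and mid-colon with each mouse left out and under the other alternatives, except that a minimum of 5 TPM tested and called 44 in rectum and 42 in mid-colon. With each mouse left out, the number of genes called ran from 27 to 34 for rectum day 3 against day 0 and from 19 to 35 for day 6, from 33 to 41 for neo-epithelium day 20 against day 9, from 9 to 17 for neo-epithelium against rectum and from 32 to 41 for the day 6 response of rectum against anus. Wider ranges were 2 to 29 for mid-colon day 6, 0 to 9 for mid-colon day 14, 0 to 1 for mid-colon day 20, 0 to 33 for rectum day 14, 0 to 12 for rectum day 20, 9 to 36 for anus day 6, 0 to 1 for anus days 9 and 20, 0 to 1 for mid-colon day 6 against day 3 and 0 to 4 for rectum day 6 against day 3. Between sections they were 0 to 2 for rectum against mid-colon and 7 to 18 for anus against rectum at day 0, 0 to 4 for the day 9 response of rectum against mid-colon, and 1 to 20 and 12 to 33 for the day 3 and day 9 responses of rectum against anus. Without mouse 9 the balance of mid-colon day 6 against day 3 turned to 1 higher and 0 lower, and without mouse 1 that of anus against rectum turned, with 14 called.

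TMM factors moved the median of all genes furthest for rectum day 9 against day 6, from 0.37 to -0.12. They gave 4 genes for mid-colon day 3, 1 for mid-colon day 14, 2 for mid-colon day 20, 7 for rectum day 14, 6 for rectum day 20, 1 each for anus days 9 and 14, 2 for mid-colon day 6 against day 3 (both higher, a turned balance) and 18 for the day 9 response of rectum against mid-colon. Without a filter on low values the counts were 3 for mid-colon day 6, 1 for rectum day 14, 0 for rectum day 20, 21 for anus day 6, 0 for anus day 20, 0 for both comparisons of day 6 with day 3, 1 for the day 9 response of rectum against mid-colon and 17 for that of rectum against anus. A minimum of 5 TPM gave 10 for mid-colon day 6 and 1 for rectum day 6 against day 3, and a pseudocount of 0.1 gave 1 for the day 9 response of rectum against mid-colon. With all days in 1 fit the counts were 1 for mid-colon day 20, 22 for rectum day 3, 6 for rectum day 14, 1 for rectum day 20, 6 for anus day 9, 2 for anus day 20, 0 for mid-colon day 6 against day 3 and 1 for rectum day 6 against day 3. Neo-epithelium against rectum gave 4 genes at day 9 alone, 1 at day 14 alone and 1 at day 20 alone, and against anus 4 at day 20 alone. Fits on single days use fewer samples. The cause of the other shifts was not tested.

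The replicate block of the mouse gave 6 genes for rectum against mid-colon at day 0, and 1, 8 and 2 for the responses of rectum against mid-colon at days 3 and 9 and of rectum against anus at day 3. It moved no other count by over 1.5 times.

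Some differences near 0 changed sign. Plk1 in mid-colon at day 3 was between -0.27 and 0.30 with each mouse left out. Cdc20 in the anus at day 3 was -0.01 with TMM factors and between -0.14 and 0.35 with each mouse left out, and Ube2c in the anus at day 6 was between -0.38 and 0.66. Mki67 in neo-epithelium against rectum was 0.23 at day 14 alone and 0.09 at day 20 alone. E2f1 in neo-epithelium against anus was -0.01 with a pseudocount of 0.1, -0.08 with TMM factors, -0.10 and -0.21 at days 14 and 20 alone and between -0.11 and 0.06 with each mouse left out, and Cdt1 there was -0.14 at day 20 alone. Depth is unknown, and genes under 1 TPM in most samples could not be tested.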
